A study of Rattus norvegicus with 12 samples.

Results

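Hearts of Sprague-Dawley rats that had been overloaded in either phase of the cardiac cycle were compared, as one group of 8, with 4 control hearts that had been left without loading. The 8 were every array titled as systolic overload (4 hearts, load in the contraction phase) and every array titled as diastolic overload (4 hearts, load in the filling phase), so all 12 arrays of the series entered and none was left out. The question was which transcripts stood higher or lower under load whichever phase carried it. Total RNA of each heart was labelled with biotin and hybridised to an Illumina rat bead array, on which each probe reports 1 transcript. The series is titled for the left ventricle, while the sample labels say heart. Age, sex, the duration of loading and the way in which it was applied were not given in the sources used here, nor was it stated that each array came from a separate animal, so every p-value is set against sample-to-sample spread that may be technical.

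Mechanical load is sensed by cardiomyocytes at the sarcomere, the Z-disc and the sites where the cell is anchored to its matrix, and by stretch-sensitive channels in the membrane. Systolic overload raises the tension against which the muscle shortens, and diastolic overload stretches it as it fills. Sustained load is known for a program of natriuretic peptides, skeletal actin, early transcription factors, matrix proteins and protein folding genes, together with a response of the resident fibroblasts, vessels and macrophages.

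The median raw intensity per array ran from 86.3 to 115.5, with means of 101.2 in control and 94.7 in overloaded hearts (two-sided exact permutation test, p = 0.158). Between 9249 and 9931 of 22523 probes were detected per heart (41.1% to 44.1%), with means of 9770 in control and 9608 in overloaded hearts (two-sided exact permutation test, p = 0.166). All 14 tested markers of ventricular cardiomyocytes were detected in all 12 hearts. Myh6, the fast myosin heavy chain, lay between 14.44 and 14.70 on the log2 scale, where the highest value of any probe was 14.99. The number of arrays limits the precision. A set of 3 arrays lay apart from the others on the first principal component, which held 23.1% of the variance, namely control 1, control 2 and diastolic overload 1 (scores of -16.9, -13.8 and -19.3). Counts of the leading gene groups are also given without these 3 arrays.

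No transcript passed the test for a difference common to both overloads. Of 10234 probes tested, 0 (0%) had an adjusted p under 0.05 (limma with Benjamini-Hochberg adjustment), and the smallest adjusted p was 0.0874, for Smoc2. The unadjusted p was under 0.05 for 576 probes (5.63%), where evenly spread p-values would give 511.7, and these were divided equally into 288 with a higher mean under overload (2.81%) and 288 with a lower mean (2.81%). With the arrays scaled to equal medians in place of quantile normalization, the median difference of all probes moved to -0.18, and 43 were higher and 1939 lower at that p, so directions below are relative to the array as a whole. The differences were small: 1.02% of probes differed by more than 0.5 on the log2 scale in either direction, and 5 probes by more than 1. The 95% interval of the difference lay within a 2-fold change in both directions for 98.2% of probes and within a 1.5-fold change for 90%.

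The overloads themselves did not pass a test against each other either. With systolic minus diastolic overload tested over the same 10234 probes, 0 (0%) passed and the smallest adjusted p was 0.499, while 647 probes had an unadjusted p under 0.05 (limma, Benjamini-Hochberg). Missing that threshold does not show that the phases act alike, and the interval of the phase difference is given below for the genes where it left out 0.

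**Figure D1:**
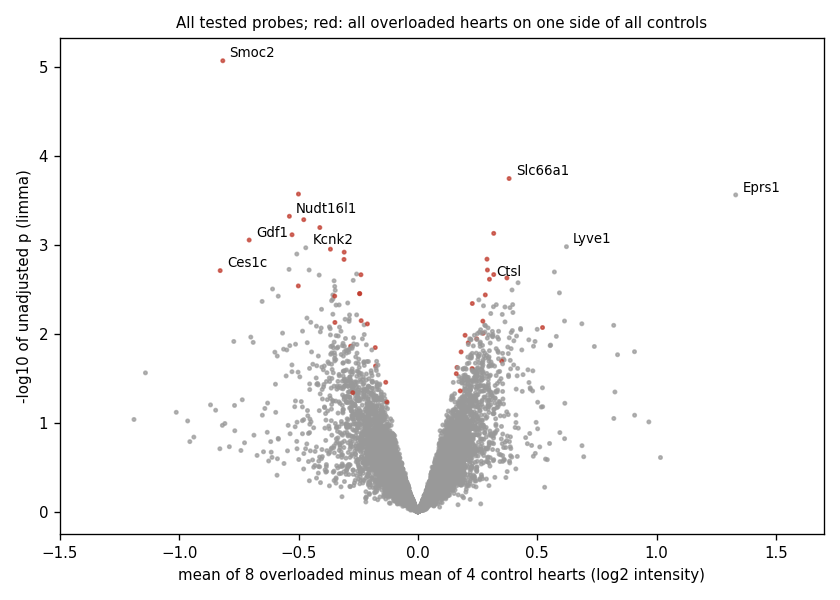
Difference between the 8 overloaded and the 4 control hearts (horizontal axis, log2) against the unadjusted p of the limma test (vertical axis, -log10) for the 10234 tested probes, with 9 genes named and the probes without overlap in red. Smoc2 stands alone at the top left with a difference of -0.82, and at p under 0.05 the probes to the left and to the right number 288 each.

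Smoc2, a secreted calcium-binding glycoprotein of the matrix that belongs to the SPARC family, was the transcript closest to the threshold and was lower under both overloads. The control hearts had log2 values of 9.07, 8.75, 8.76 and 8.97. The systolic overload hearts had 8.03, 8.42, 8.09 and 7.94, and the diastolic overload hearts had 8.13, 7.90, 7.74 and 8.30. All 8 overloaded hearts lay below all 4 controls, with a gap between the highest overloaded heart (systolic 2) and the lowest control (control 2). The mean was 8.89 ± 0.16 (SD, n = 4) in control and 8.07 ± 0.22 (SD, n = 8) in overloaded hearts, a difference of -0.82 (95% interval -1.07 to -0.56) or 1.76-fold lower, with a limma adjusted p of 0.0874. Against the same controls, systolic overload differed by -0.77 and diastolic overload by -0.87, and the difference between the phases was 0.10 (-0.20 to 0.40). Leaving out 1 heart at a time gave differences between -0.87 and -0.75. The adjusted p fell under the threshold without systolic 2 (0.0269) and in 5 of 11 other settings that used another normalization, filter or model on all 12 arrays. It stayed above the threshold without any other single heart, from 0.0904 without diastolic 4 to 0.616 without control 4. With 3 means it was 0.151, with a replicate block 0.267, and without the 3 arrays that lay apart 0.542 (limma, Benjamini-Hochberg). Sparc, the founding member of the family, had a difference of -0.20 (-0.48 to 0.09), which was -0.07 without control 1 and -0.30 without control 3, and its groups overlapped.

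**Figure D2:**
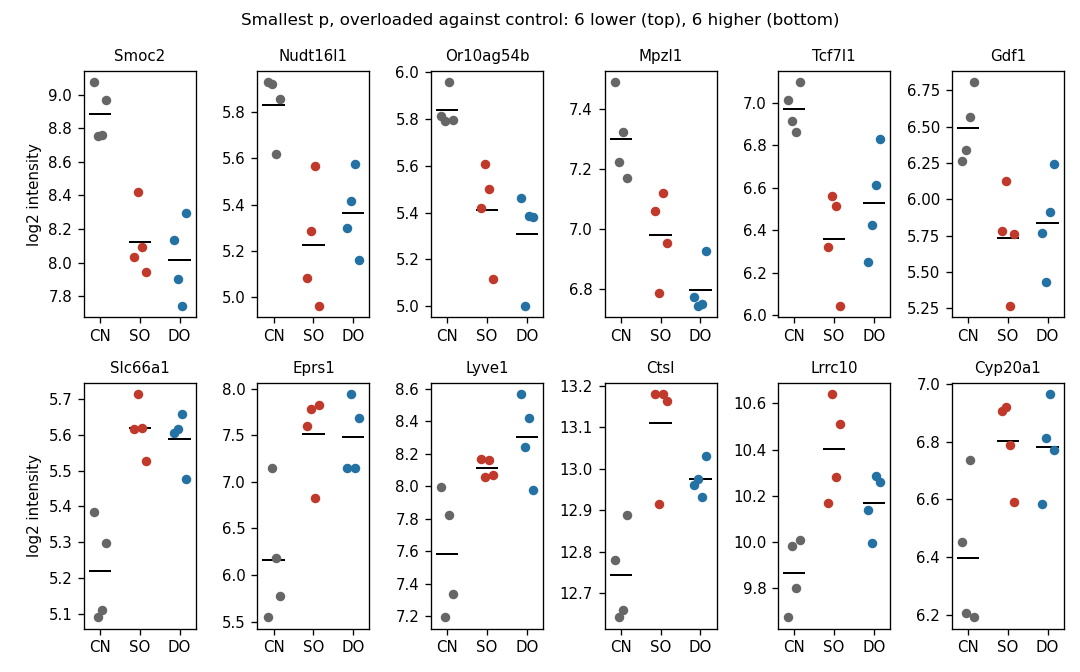
Log2 intensity (vertical axis) in every heart for the 6 genes with a lower mean (top) and the 6 with a higher mean (bottom) that had the smallest p. Points are single hearts under control (CN), systolic overload (SO) and diastolic overload (DO), and lines are the means of 4 hearts. In the Smoc2 panel the 8 overloaded hearts lie between 7.74 and 8.42, all below the controls at 8.75 to 9.07.

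Among the other 11 genes with the lowest p on the lower side, adjusted p was 0.86 for each (limma, Benjamini-Hochberg), so none can be called. Leaving aside Zbtb6, for which there is only a bound, their differences ran from -0.71 for Gdf1 to -0.31 for Lhfpl2. Those seen well above background in all 12 hearts were Mpzl1, Tcf7l1, Kcnk2 and Eno1.

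Mpzl1, a membrane glycoprotein that binds the tyrosine phosphatase encoded by Ptpn11, had log2 values of 7.49, 7.22, 7.32 and 7.17 in control hearts, and overloaded hearts ran from 6.75 through a median of 6.86 to 7.12. No overloaded heart reached a control, and the difference was -0.41 (-0.61 to -0.21). Ptpn11 itself was among the genes with a higher mean: controls had 7.62, 7.46, 7.40 and 7.60, and overloaded hearts ran from 7.66 through 7.77 to 8.03. Its groups did not overlap either, and the difference was 0.28 (0.11 to 0.46). Tcf7l1, which acts on genes at the end of the Wnt pathway, had 7.01, 6.91, 6.86 and 7.10 in controls and 6.04, 6.47 and 6.83 as the lowest, median and highest overloaded hearts. Its difference of -0.53 (-0.79 to -0.26) came with values of -0.61 for systolic and -0.44 for diastolic overload.

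Kcnk2, a background potassium channel that opens on membrane stretch, had control values of 9.08, 9.64, 9.70 and 9.41, and overloaded hearts lay at 8.69, 9.02 and 9.13 (lowest, median, highest). All but 1 of the 8 overloaded hearts were below every control, the overlap being with control 1, and the difference was -0.47 (-0.71 to -0.22). Eno1, an enzyme of glycolysis, had 8.88, 8.68, 8.32 and 8.10 in controls and 7.66, 8.01 and 8.17 in overloaded hearts, so that 6 of 8 lay below every control. The difference was -0.54 (-0.84 to -0.24). Gdf1, which encodes a ligand of the TGF-beta family, had 6.27, 6.34, 6.57 and 6.81 in controls and 5.27, 5.78 and 6.24 in overloaded hearts on the probe with the smallest p, without overlap. The other tested probe for Gdf1 disagreed, with a difference of 0.0079 and an unadjusted limma p of 0.948, so the lower mean was seen on 1 of the 2 tested probes.

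The remaining lower genes were close to background under overload. Nudt16l1, which binds the repair factor TP53BP1, had 5.93, 5.92, 5.62 and 5.86 in controls and 4.96, 5.29 and 5.57 in overloaded hearts, of which 4 of 8 were detected. The groups did not overlap, and the difference was -0.54 (-0.79 to -0.28). Or10ag54b, annotated as an olfactory receptor, differed by -0.48 and Nccrp1 by -0.37, both without overlap. Spg7, a subunit of a protease of the mitochondrial inner membrane, differed by -0.51 with 1 of 8 overloaded hearts detected. Zbtb6, a zinc finger protein, was not well above background in any overloaded heart and was detected in all 4 controls, which bounds the fold at at least 1.08-fold lower (limma adjusted p 0.86). Lhfpl2 was detected in 1 overloaded heart.

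On the higher side, Slc66a1, a lysosomal exporter of basic amino acids, had the smallest p. Controls had log2 values of 5.39, 5.09, 5.11 and 5.30, and the overloaded hearts lay between 5.48 and 5.71 with a median of 5.62. The groups did not overlap, but 2 of 4 controls were below the detection limit, and the difference of 0.38 (0.22 to 0.54) had a limma adjusted p of 0.702. Eprs1, the synthetase that charges the transfer RNAs of glutamate and proline, had the largest difference of the 24 named by p, at 1.33 (0.74 to 1.92) or 2.52-fold, with an adjusted p of 0.702. Its controls were spread over 5.55, 7.15, 6.19 and 5.78. The systolic hearts had 7.60, 7.78, 6.82 and 7.82 and the diastolic hearts 7.14, 7.94, 7.14 and 7.69, so that 5 of 8 were above every control and the overlap was with control 2 alone.

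The other 10 genes with a higher mean each had an adjusted p of 0.86 (limma, Benjamini-Hochberg). Lyve1, a hyaluronan receptor of resident macrophages and lymphatic vessels, had 7.99, 7.19, 7.82 and 7.33 in controls and 7.98, 8.16 and 8.57 as the lowest, median and highest overloaded hearts. Only diastolic 4 lay below the highest control, and the difference was 0.62 (0.30 to 0.95). Prox1 and Pdpn, other markers of lymphatic vessels, differed by -0.05 (-0.24 to 0.13) and -0.18 (-0.94 to 0.58). Ctsl, a lysosomal protease, had 12.78, 12.64, 12.66 and 12.89 in controls and ran from 12.91 to 13.18 in overloaded hearts, the systolic mean being the higher (0.37 above control, against 0.23 for diastolic overload). The groups did not overlap, and the difference was 0.30 (0.13 to 0.47).

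Lrrc10, a cardiomyocyte protein of the Z-disc region, had 9.67, 9.98, 9.80 and 10.01 in controls and 10.00, 10.27 and 10.64 in overloaded hearts, a difference of 0.42 (0.17 to 0.67) with 7 of 8 above every control. Ywhag, an adaptor protein that binds phosphorylated serines, had 7.10, 7.44, 7.06 and 7.13 in controls and 7.39, 7.73 and 8.52 in overloaded hearts. Its difference was 0.59 (0.23 to 0.95), and it was the only one of the 24 genes whose phase interval left out 0, at -0.38 (-0.75 to -0.01) for systolic minus diastolic overload. Hspa4, a cytosolic heat shock protein, differed by 0.40 (0.14 to 0.65) with 6 of 8 above every control. Cyp20a1, a cytochrome P450, differed by 0.39 (0.16 to 0.63), and Ppp1r1b, an inhibitor of protein phosphatase, by 0.27 (0.10 to 0.45). Pld2, a phospholipase, and Mettl21c, a lysine methyltransferase of muscle, stayed under the detection limit in every control heart and were detected in 6 and 4 of 8 overloaded hearts, at least 1.06-fold and 1.03-fold higher.

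**Figure D3:**
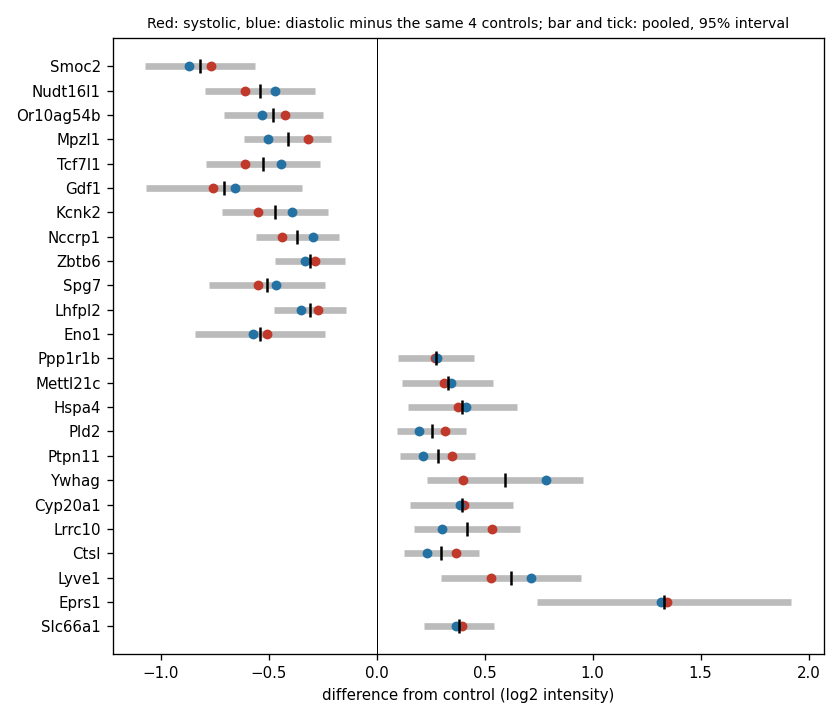
Difference from control (horizontal axis, log2) for the 24 genes with the smallest pooled p, 12 in each direction, with 1 line per gene. Red points are systolic and blue points diastolic overload against the same 4 controls, the tick is the pooled difference and the grey bar its 95% interval. The genes were taken by their pooled p, which favours those alike in both phases. Smoc2 lies at -0.77 and -0.87, Eprs1 at 1.34 and 1.32, and Ywhag has its points far apart, at 0.40 and 0.78.

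A second description asked for no overlap at all. In 46 probes (0.449% of those tested) every overloaded heart lay on the same side of every control: 21 had all 8 higher (0.205%) and 25 had all 8 lower (0.244%). There are 495 ways to draw 4 controls from 12 arrays, and for each probe a single draw separates the groups in each direction. The shares seen are near what such draws alone would give, so a lack of overlap is no evidence of a load effect by itself. This also holds for the genes above. A gene symbol was known for 30 of these probes, 10 on the higher and 20 on the lower side. Besides the genes above, the lower side held Ces1c, a secreted carboxylesterase, at 8.37 ± 0.29 (SD, n = 4) in control and 7.54 ± 0.44 (SD, n = 8) in overloaded hearts, a difference of -0.83. It also held Cln3, a lysosomal membrane protein (-0.35), Parp1, an enzyme of DNA repair (-0.24), and Jup, plakoglobin of the cell junction (-0.21). These 4 were chosen after their values were seen, and none passed the limma test.

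None of the classical load genes passed the pooled test, which does not show that they were unchanged. Of the panel of 16 genes, Hspa1b, an inducible heat shock protein, was undetected in all 12 hearts and was not tested, and of the other 15 none had an adjusted p under 0.86 (limma, Benjamini-Hochberg). Acta1, skeletal actin, came nearest, with 13.67, 13.87, 13.08 and 13.56 in controls and 13.46, 13.89 and 14.25 as the lowest, median and highest overloaded hearts. Its difference was 0.34 (-0.01 to 0.70), and 4 of 8 overloaded hearts were above every control. Without control 3 the difference was 0.19. Nppa, the atrial natriuretic peptide, varied more between hearts than between groups, with controls at 14.22, 12.56, 11.02 and 11.90 and overloaded hearts from 10.46 through 12.30 to 14.46. The difference was -0.22 (-1.84 to 1.40), an interval wide enough to hold a 2-fold change in either direction. Nppb, the ventricular natriuretic peptide, differed by 0.09 (-0.09 to 0.27).

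Nppb (14.26 to 14.66), the myosin heavy chains and Ankrd1, a stretch-responsive protein of the Z-disc, lay close to the highest value of any probe, 14.99, so their narrow spread does not show stable levels. Myh6 differed by 0.04 (-0.10 to 0.18) and Myh7, the slow myosin, by -0.04 (-0.18 to 0.09). Ankrd1 was above every control in 7 of 8 overloaded hearts, with a difference of 0.09 (-0.04 to 0.23), and below every control in systolic 2.

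For Hbegf, Ccn2, Postn and Ccl2 the mean over both phases joined opposite directions against the shared controls. Hbegf, a growth factor shed from the cell surface, differed from control by -0.37 under systolic and 0.50 under diastolic overload, with a phase difference of -0.87 (-1.62 to -0.11). Ccn2, the connective tissue growth factor, stood at -0.50 and 0.25, with a phase difference of -0.75 (-1.38 to -0.12), and Postn, a matricellular protein of activated fibroblasts, at -0.88 and 0.44, with -1.32 (-2.57 to -0.07). Ccl2, a chemokine, stood at -0.05 and 0.15, with a phase difference of -0.20 (-0.64 to 0.24). The pooled differences were 0.07, -0.12, -0.22 and 0.05, and none of the 4 passed the adjusted test between phases. The opposite directions leaned on single hearts. For Hbegf control 1 stood at 8.34, against 6.85, 7.04 and 6.29 in the other controls, and without it the pooled difference was 0.47. For Postn diastolic 1 stood at 9.98, against 8.00, 8.05 and 6.76 in the other diastolic hearts, and without it the pooled difference was -0.57. The pooled value of Postn ran from -0.63 to -0.03 when 1 heart was left out. The directions by phase were not recomputed in that way. The early transcription factors Fos, Egr1 and Atf3 differed by -0.09 (-0.64 to 0.45), -0.08 (-0.46 to 0.30) and 0.01 (-0.22 to 0.25). The cytokine Il6 differed by -0.46 (-1.32 to 0.40) and the stress cytokine Gdf15 by -0.35 (-0.93 to 0.23), the latter by -0.20 without control 2 and -0.22 without diastolic 3.

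**Figure D4:**
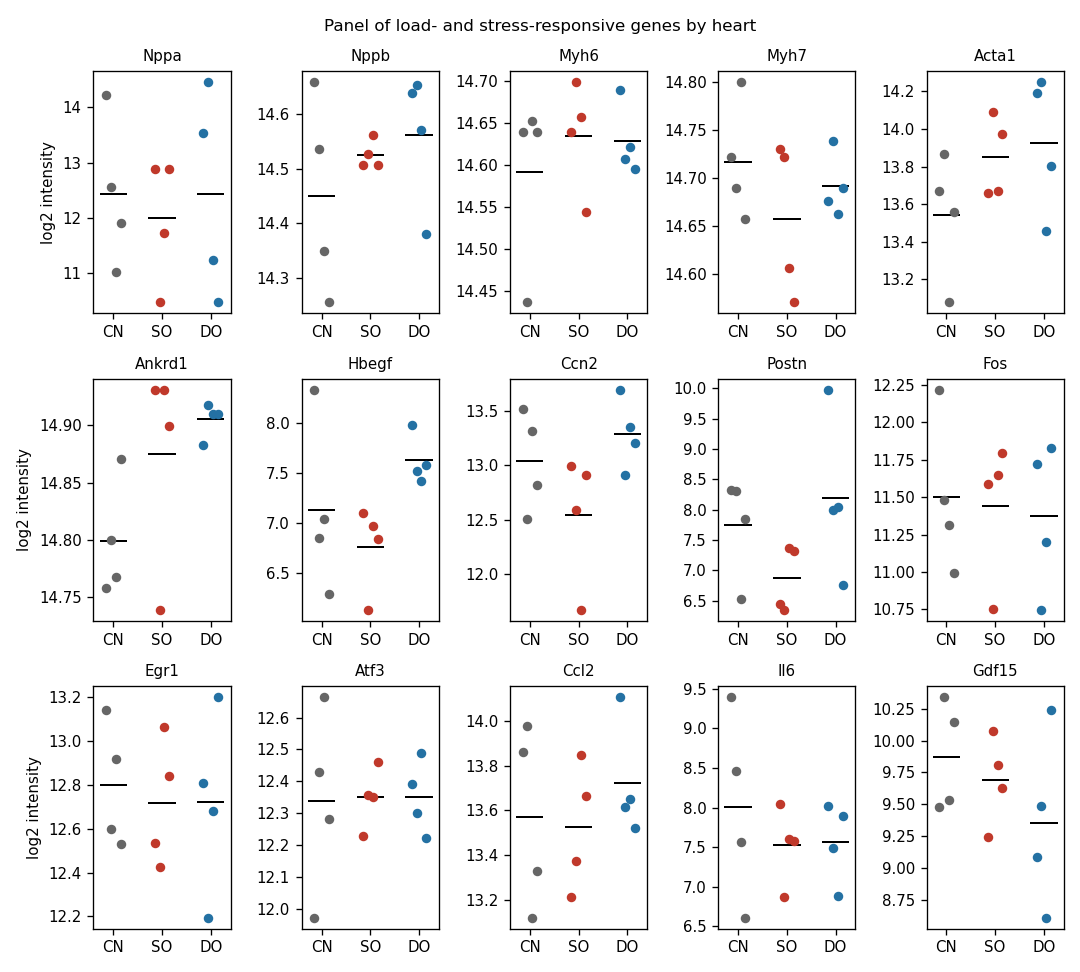
Log2 intensity (vertical axis, on a scale of its own in each panel) in every heart for the 15 detected genes of the load panel. Points are single hearts under control (CN), systolic overload (SO) and diastolic overload (DO), and lines are the means of 4 hearts. Overloaded hearts overlap with controls in every panel, and Nppa is spread from 10.46 to 14.46 among overloaded hearts.

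Gene groups were described by counts, beside all tested probes, of which 50.9% had a higher and 49.1% a lower mean under overload and whose median difference was 0.0026. Relative to the shift of all probes under median scaling, 4 of the 35 groups with 5 or more tested genes turned direction: calcium handling, oxidative phosphorylation, hypoxia-inducible genes and the markers of smooth muscle cells and pericytes. No member of any group passed the adjusted test. In bulk tissue, fewer cells of a type and less RNA per cell cannot be told apart, which holds for all markers below.

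Macrophage markers had the highest median of all the gene groups. Of 13 tested markers, 10 had a higher and 3 a lower mean under overload, 6 of them higher at an unadjusted limma p under 0.05 (background 2.81%) and 0 lower, and the median difference was 0.32. This median was 0.31 under systolic and 0.39 under diastolic overload against the same controls. Single markers ran from -0.383 to 0.622, and those named here, taken by smallest p, are all higher. Besides Lyve1, Adgre1, which encodes a surface antigen used to identify macrophages, had 5.52, 5.55, 5.74 and 5.46 in controls and 5.52, 5.95 and 6.37 as the lowest, median and highest overloaded hearts. All but 1 overloaded heart lay above every control, with a difference of 0.43 (0.13 to 0.73). Mrc1, the mannose receptor, differed by 0.40 (0.10 to 0.70), with 6 of 8 above every control. The summed signal of the 13 markers ran from 3160 to 4330 in control hearts and from 3600 through a median of 4390 to 7880 in overloaded hearts, the highest being diastolic 1. Leaving out 1 heart at a time, the number higher at that unadjusted p ran from 2, without control 3, to 7, and the median from 0.20 to 0.43. Without the 3 arrays that lay apart, 11 of 13 were higher, 3 of them at that p, with a median of 0.28. Under median scaling 10 were higher, 2 at that p, with a median of 0.13.

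Lymphocyte markers stood higher in 8 of 11, 3 of them at an unadjusted p under 0.05 (background 2.81%), with a median of 0.15. Single markers ran from -0.385 to 0.542, and those named here, taken by smallest p, are all higher. Cd3g and Cd3d, chains of the T cell receptor complex, differed by 0.47 (0.04 to 0.89) and 0.52 (0.03 to 1.02), and Hcst, a signalling adaptor of natural killer and T cells, by 0.44 (0.10 to 0.77). Each had 5 of 8 overloaded hearts above every control, and without control 4 Cd3g stood at 0.30. Both phases had a higher mean than control, but Cd3d stood 0.17 above control under systolic and 0.87 under diastolic overload, a phase difference of -0.71 (-1.12 to -0.29). For Hcst the phase difference was -0.42 (-0.74 to -0.10). The summed signal of the 11 markers overlapped, with 851 to 1920 in control and 763 to 2150 in overloaded hearts. Without control 4 the direction turned, with 5 of 11 higher and a median of -0.02, and without control 2, or without the 3 arrays that lay apart, 0 had an unadjusted p under 0.05 (limma). None of 8 neutrophil markers on the array was detected often enough to be tested.

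Endothelial markers had lower means. Of 12 tested, 11 were lower and 1 higher, 4 lower at an unadjusted p under 0.05 (background 2.81%), and the median was -0.27 (-0.26 under systolic and -0.30 under diastolic overload). The 1 higher marker stood at 0.229. Emcn, a sialoglycoprotein of venous and capillary endothelium, had 10.62, 10.20, 10.44 and 10.68 in controls and 9.93, 10.12 and 10.42 in overloaded hearts, with 7 of 8 below every control and a difference of -0.36 (-0.58 to -0.13). The transcription factors Sox18 and Erg differed by -0.44 (-0.81 to -0.07) and -0.33 (-0.58 to -0.09), near background, with 5 and 1 of 8 overloaded hearts detected. Without control 4 the difference of Sox18 was -0.26. The summed signal was 3260 to 5730 in control and 2900 to 5190 in overloaded hearts, with overlap. Leaving out 1 heart at a time, the median ran from -0.35 to -0.11, the latter without control 1, and without control 4 the number lower at that p was 2. Without the 3 arrays that lay apart, 9 of 12 were lower with a median of -0.20.

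Other cell types showed smaller or mixed differences. Ventricular cardiomyocyte markers were higher in 11 of 14, with a median of 0.115 and 1 higher at an unadjusted p under 0.05, Lrrc10 (background 2.81%). Fibroblast markers were divided equally, 7 higher (up to 0.355) and 7 lower, with a median of -0.02. At an unadjusted limma p under 0.05, 0 were higher and 2 lower (background 2.81%). These were Ddr2, a collagen receptor, at -0.37 (-0.63 to -0.10) and Tcf21, a transcription factor of cardiac fibroblasts, at -0.31 (-0.60 to -0.02). Markers of smooth muscle cells and pericytes were lower in 7 of 9 with a median of -0.08, a direction that median scaling turned relative to all probes. Atrial markers were lower in 5 of 6, with a median of -0.20, but their summed signal spanned 6440 to 23200 in control and 2740 to 27800 in overloaded hearts. Without the 3 arrays that lay apart, 4 of 6 atrial markers were higher and the median turned to 0.101. Myl7, the atrial light chain of myosin, differed by -0.74 (-1.94 to 0.46), and by -1.31 without control 2 and -0.35 without control 3. Markers of red cells were lower in 5 of 6 with a median of -0.35, and summed to 460 to 1570 in control and 274 to 874 in overloaded hearts. How far atrial tissue or blood in the sample took part in the differences above was not tested.

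Interferon-stimulated and antigen presentation genes had lower means in 24 of 29, with a median of -0.18 and 0 at an unadjusted p under 0.05 (limma). Ifi44, an interferon-induced protein, had 9.52, 9.62, 7.67 and 8.28 in controls and 7.41, 7.93 and 8.91 in overloaded hearts, a difference of -0.74 (-1.49 to 0.02). Controls 1 and 2 were the high ones, and the difference was -0.49 without the former and -0.45 without the latter. Without control 1, control 2 and diastolic 1 together, 18 of 29 genes had a higher mean and the median turned to 0.105. The mean deviation of the group was 0.47 in control 1, 0.66 in control 2 and 0.67 in diastolic 1. With any single heart left out the median stayed below 0, from -0.338 without control 3 to -0.041 without control 2. Leaving out control 1 and control 2 without diastolic 1 was not tried.

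Genes of protein folding in the endoplasmic reticulum had higher means in 13 of 22 with a median of 0.06, of which 4 were higher at an unadjusted p under 0.05 (background 2.81%) and 0 lower. Creld2, a disulfide isomerase of the reticulum, had 7.31, 7.31, 7.34 and 7.04 in controls and 7.23, 7.57 and 7.81 in overloaded hearts, with 7 of 8 above every control and a difference of 0.31 (0.09 to 0.54). Trib3, a pseudokinase of the stress response, differed by 0.46 (0.12 to 0.81). Manf, a secreted stress factor, differed by 0.30 (0.05 to 0.54), at 0.45 under systolic and 0.14 under diastolic overload, a phase difference of 0.31 (0.08 to 0.54). The median of the group was 0.15 under systolic and -0.02 under diastolic overload against the same controls. Under median scaling the group stood at -0.13, with 5 genes higher and 17 lower, where all probes stood at -0.18. Without control 3, or without control 4, 2 genes were higher at that unadjusted p. Cytosolic and mitochondrial heat shock proteins were higher in 14 of 21 with a median of 0.02, among them Dnajb5, a co-chaperone, at 0.29 (0.03 to 0.55). Ubiquitin ligases, proteasome and autophagy genes were higher in 21 of 29 with a median of 0.05, led by Ctsl and by Cblb, a ubiquitin ligase, at 0.24 (0.03 to 0.46).

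Ion channels and connexins had lower means in 16 of 23, 3 at an unadjusted p under 0.05 (background 2.81%), with a median of -0.09. Without control 1 the number at that p was 1 and the median -0.09. Besides Kcnk2 these were Gja5, a connexin of the atria and the conduction system, at -0.60 (-1.07 to -0.13), and Hcn4, the pacemaker channel, at -1.14 (-2.14 to -0.15). Hcn4 was uneven, at 7.48, 7.08, 4.75 and 6.50 in controls, and detected in 3 of 4 controls and 4 of 8 overloaded hearts. Without control 1 Gja5 stood at -0.35, and without control 3 Hcn4 stood at -1.71. Both are known from atrial and conduction tissue, and the part that the uneven atrial signal given above took in them was not tested. The adrenergic, angiotensin and endothelin system was lower in 11 of 18. Its leading member Adra1b, an alpha-adrenergic receptor, had 11.56, 12.21, 12.18 and 12.03 in controls and 11.32, 11.46 and 11.96 in overloaded hearts, a difference of -0.45 (-0.76 to -0.14). Grk2, a kinase that desensitises adrenergic receptors, differed by -0.26 (-0.48 to -0.03) near background, detected in 3 of 4 controls and 1 of 8 overloaded hearts, and by -0.16 without control 1.

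**Figure D5:**
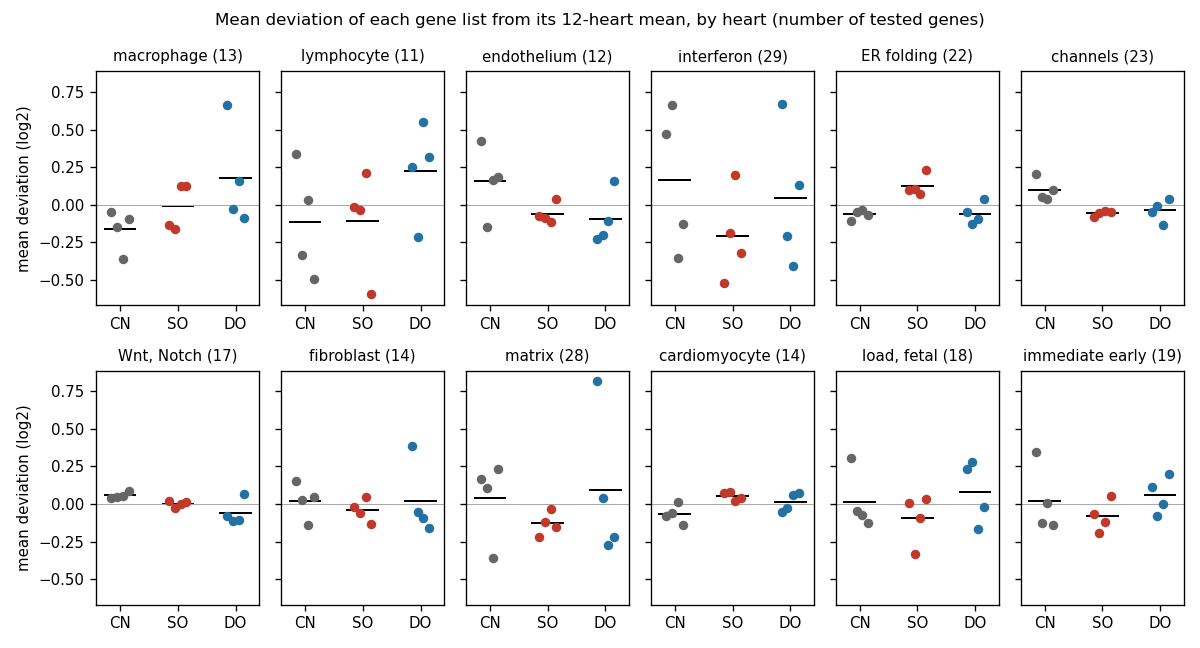
Mean deviation of the tested genes of 12 groups from their mean over all hearts (vertical axis, log2), with points for single hearts under control (CN), systolic overload (SO) and diastolic overload (DO) and lines for the means of 4 hearts. Macrophage markers lie mostly higher and endothelial markers mostly lower under overload, with overlap in both, and channel genes lie at 0.037 to 0.206 in control and -0.137 to 0.036 in overloaded hearts.

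Genes of energy metabolism had mixed directions. Oxidative phosphorylation subunits were higher in 16 and lower in 21 of 37 with a median of -0.01 (22 higher without the 3 arrays that lay apart). Ndufb9, a subunit of complex I, stood at 0.20 (0.02 to 0.38), or 0.12 without control 4. Its values of 14.27 to 14.81 also lay close to the highest of any probe, 14.99, which limits what its difference can show. Genes of fatty acid oxidation were lower in 23 of 35 with a median of -0.03. Ppara, their transcriptional regulator, had 6.09, 5.84, 6.12 and 5.68 in controls and 5.08, 5.48 and 5.96 in overloaded hearts, with a difference of -0.41 (-0.70 to -0.12). Glycolytic genes were lower in 15 of 22 (9 without those 3 arrays), with 2 at an unadjusted p under 0.05 on each side (background 2.81% each). These included Eno1 and Hk2, the muscle hexokinase, at -0.54 and -0.28, and Pkm, pyruvate kinase, at 0.28 (0.08 to 0.48). Hypoxia-inducible genes were divided equally, 7 and 7, and Vegfa, the vascular growth factor, differed by -0.34 (-0.66 to -0.01), at -0.14 under systolic and -0.54 under diastolic overload, a phase difference of 0.40 (0.09 to 0.71).

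Structural and signalling groups held few members past an unadjusted p of 0.05 (background 2.81% in each direction). Matrix genes were lower in 16 of 28, with Smoc2 the single member at that p, and matrix proteases and their inhibitors were lower in 11 of 21. Adamts7, a secreted metalloprotease, had 6.66, 6.89, 6.85 and 6.89 in controls and 6.09, 6.32 and 6.67 in overloaded hearts, a difference of -0.46 (-0.71 to -0.20). Ltbp1, which stores latent TGF-beta in the matrix, differed by -0.37 (-0.70 to -0.04), or -0.23 without control 1, in a pathway where 14 of 22 genes were lower. Wnt and Notch genes were lower in 11 of 17 with a median of -0.09, and Fzd5, a Wnt receptor, stood beside Tcf7l1 at -0.35 (-0.56 to -0.15). Sarcomere genes were higher in 10 of 14 with a median of 0.04, and Csrp3, a Z-disc protein, was the single member at that p among 18 genes of the load and fetal program, at 0.20 (0.01 to 0.38). Immediate early genes (9 higher, 10 lower) and MAPK kinases with their feedback phosphatases (12 higher, 13 lower) held none. Growth signalling through PI3K and mTOR was higher in 14 of 18, led by Igf1r, the receptor of insulin-like growth factor, at 0.23 (0.03 to 0.43).

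Single members of further groups had wider differences. Fkbp5, a co-chaperone of the glucocorticoid receptor, had 10.83, 10.33, 10.06 and 10.60 in controls and 10.35, 11.11 and 11.50 in overloaded hearts, a difference of 0.55 (0.13 to 0.97). It was 0.80 under systolic and 0.31 under diastolic overload, and the phase difference was 0.48 (0.07 to 0.90). Per1, a clock gene that glucocorticoids induce, went the other way, at -0.55 (-1.04 to -0.06), or -0.32 without control 1. The glucocorticoid-responsive group was divided, 7 higher and 8 lower (10 and 5 without the 3 arrays that lay apart). Tob1, an antiproliferative protein, differed by 0.34 (0.06 to 0.61), with a phase difference of 0.36 (0.11 to 0.61), and Casp8, an initiator caspase, by -0.39 (-0.72 to -0.06). In the antioxidant group, where 20 of 29 were higher, Gclc, which makes glutathione, stood at 0.24 (0.02 to 0.47) and Keap1, the repressor of NRF2, at -0.27 (-0.47 to -0.07).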

How the data were processed

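The authors deposited, per the file headers, a table of non-normalized probe intensity for 12 arrays with a detection p-value for each probe and array. No source used here names the scanner software. A further deposited table of linear intensity, whose columns share one distribution, served as an alternative.

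The groups were taken from the sample labels. Background was corrected with normexp from the detection p-values (nec, offset 16), arrays were quantile normalized and values put on the log2 scale (limma 3.58.1, R 4.3.3). Of 22523 probes, 10234 were detected (p under 0.05) on 4 or more of the 12 arrays and entered the test. The test was limma with 2 means, 8 overloaded against 4 control hearts, with Benjamini-Hochberg adjustment over all tested probes and a threshold of 0.05. The difference between the phases came from a model of 3 means. The intervals are 95% intervals. Where a group had a probe not well above background on any array, the fold is a bound against the lowest detected signal. The procedure was tested on simulated data with independent noise and the same shift in all 8 overloaded arrays. On average 57.6% of planted differences of 0.5 and 93.2% of those of 1 (log2) passed the threshold, with 9.4 false calls. Real arrays vary together and the phases may differ, so these shares need not hold for the hearts.

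Of all probes, 13793 have 1 symbol in the platform annotation, 0 several and 8730 none, and 13752 were found by gene identifier in RefSeq of GRCr8. Named genes were those past the threshold, the 12 with the smallest p in each direction, a panel of 16 load genes, and up to 3 members with the smallest p from each of 42 gene lists, where the brightest tested probe, by its mean over all arrays, stands for a gene. The members and lists were chosen with earlier results of these data known. Replicate numbers shared by the groups did not pair the hearts. Alternatives were the deposited table, median scaling, no background correction, another offset, other detection filters, other limma settings, 3 means, a replicate block, leaving out each heart, and, chosen after seeing the data, leaving out 3 arrays together.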

Additional observations from a re-analysis of the deposited data

Results flagged for a closer look

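Within the 4 controls or the 8 overloaded hearts, 1 heart stood far from its group by Dixon's ratio for 9 of 178 groups of values. Chance alone gives about 1 in 20, so the number flagged is near the chance share. The hearts below are listed as a description only. Control 2 was the distant heart for 3 genes, being high for Nccrp1 (5.74) and Casp8 (5.97) and low for Myh6 (14.44). Control 3 was high for Or10ag54b (5.96), and control 4 was low for Creld2 (7.04). Among overloaded hearts, diastolic 1 was high for Ywhag (8.52) and for Postn (9.98), systolic 3 was high for Gja5 (6.18), and systolic 2 was low for Ankrd1 (14.74). Diastolic 1 and control 2 are also among the 3 arrays that lay apart on the first principal component.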

How the results depend on the processing

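The limits are the 4 controls, the narrow range left for the brightest probes, and probes near the detection limit, whose folds are bounds where a whole group was undetected and otherwise include values below the limit. The number of probes past the threshold was 1, Smoc2, with the deposited table (adjusted p 0.0343), median scaling (0.034), no background correction (0.0338), an offset of 50 (0.0417) and limma's trend and robust options (0.0282), and 0 to 1 when 1 heart was left out. At an unadjusted p under 0.05 there were 1982 probes with median scaling and 1239 with no detection filter, and 478 to 683 when 1 heart was left out. Probes without overlap numbered 174 with median scaling (6 higher, 168 lower), 97 with no filter, 28 when detected on all 12 arrays, 29 at a detection p under 0.01, 60 to 164 with 1 heart left out and 620 without control 1, control 2 and diastolic 1, which leaves fewer hearts to overlap. The phase difference had 0 probes past the threshold in every setting run. The shared replicate numbers did not pair the hearts: same-numbered hearts had correlations of -0.272 to 0.33, and with a replicate block 0 probes passed (smallest adjusted p 0.267) and 587 had an unadjusted p under 0.05.

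Of 2101 gene values under 24 settings, 31 turned direction, in 9 genes of the load panel, none past the threshold; the cause was not tested. With median scaling Hbegf stood at -0.11, Atf3 at -0.19 and Ccl2 at -0.13, and with array weights Atf3 at -0.016 and Ccl2 at -0.015. Without control 1, control 2 and diastolic 1, Nppa stood at 0.57, Myh6 at -0.024, Fos at 0.22, Atf3 at -0.13 and Il6 at 0.39. With 1 heart left out, the ranges were -0.69 to 0.38 for Nppa, -0.30 to 0.055 for Ccn2, -0.26 to 0.15 for Fos, -0.17 to 0.037 for Egr1, -0.11 to 0.12 for Atf3, -0.92 to 0.0040 for Il6, -0.013 to 0.061 for Myh6, -0.21 to 0.47 for Hbegf and -0.099 to 0.19 for Ccl2.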

Other observations

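No gene of the further groups passed the adjusted test (limma, Benjamini-Hochberg). Calcium handling genes of cardiomyocytes were higher in 8 and lower in 5 of 13, with a median of 0.02, and held none at an unadjusted p under 0.05. Integrins and focal adhesion proteins were lower in 14 of 21, while Pdlim3, a scaffold protein of the Z-disc, stood at 0.33 (0.01 to 0.64), or 0.21 without control 2, with 5 of 8 overloaded hearts above every control. Cytokines, chemokines and NF-kB genes were divided, 17 higher and 16 lower of 33, and Cxcl2, a neutrophil chemokine, stood at 0.31 (0.00 to 0.62). Circadian clock genes were lower in 7 of 9 with a median of -0.10, led by Per1. Ribosomal proteins and initiation factors were higher in 19 of 28 with a median of 0.01. Regulators of apoptosis and growth arrest were higher in 12 of 23.

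Small marker groups of other cells held few tested genes: 4 for mast cells (3 higher), 4 for adipocytes (1 higher), 4 for nerve and Schwann cells (1 higher), 3 for skeletal muscle (2 higher) and 4 for lymphatic endothelium (1 higher, Lyve1). None of 6 epicardial markers on the array was tested. Ankrd37, a hypoxia-inducible ankyrin repeat protein, had 6.30, 5.90, 6.01 and 5.89 in controls and 5.42, 5.62 and 6.05 as the lowest, median and highest overloaded hearts, with 7 of 8 below every control and a difference of -0.37 (-0.63 to -0.11).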
